A study of Mus musculus with 2 samples.

Results

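Alveolar type 2 (AT2) cells were examined in lung sections of 2 mouse models of small cell lung cancer (SCLC). Transcripts were counted in place by Xenium In Situ, which hybridizes probes for a chosen panel of genes to a tissue section and reads their codes by imaging. A cell was taken as an AT2 cell if it held at least 20 gene transcripts, if its transcripts of *Lamp3*, *Mlc1*, *Hc* and *Lrp2* summed to at least 4 and to more than its transcripts of *Ager* and *Aqp5*, and if it held at most 1 transcript of the neuroendocrine (NE) genes *Chga*, *Chgb*, *Scg5*, *Snap25* and *Celf3*. This rule found 28282 AT2 cells among 497663 cells. Of these, 12334 were in the RPR2 section, out of 154818 cells, and 15948 were in the CRPR2 section, out of 342845 cells. RPR2 mice carry *Rb1* lox/lox, *Trp53* lox/lox and *Rbl2* lox/lox alleles, deleted by adenoviral Cre that was instilled into the trachea at 10 weeks of age. CRPR2 mice carry the same alleles, received the same Cre and are also *Cracd* KO. The *Cracd* KO is germline, so that all cells of these mice carry it, whereas Cre acts only in cells that the virus reached. Whether an AT2 cell counted here was reached is not known. Lungs were harvested months after Cre, at a single fixed time point. There was 1 section per genotype, from a shared tissue block on 1 slide. The study's reporting summary states that more than 1 tumor sample per condition was run on Xenium. How many mice the sections used here hold, and of which sex, is not given in the sources used here. The sections held 479 genes, 16313950 gene transcripts in RPR2 and 37348565 in CRPR2, and 8 cell barcodes were found in both. The median AT2 cell held 126 gene transcripts in RPR2 and 143 in CRPR2. *Cracd* and *Rbl2* were not analysed here, so the knockout itself was not checked. No test between genotypes was possible, and every interval below (95%) covers counting error only, not the spread between mice. Genotype and section cannot be told apart. Where a sentence gives a pair of values with no section named, the first is RPR2 and the second is CRPR2.

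AT2 cells are the cuboidal cells of the alveolus that make, store and secrete pulmonary surfactant, the lipid and protein film that lowers surface tension. They keep surfactant in lamellar bodies, take up sodium and phosphate from the alveolar fluid, and act as progenitors that divide and give rise to the flat alveolar type 1 (AT1) cells after injury. Of the marker genes of the rule, *Lamp3* encodes a lysosomal membrane protein found on lamellar bodies, *Hc* encodes complement C5, *Lrp2* encodes the endocytic receptor megalin, and *Mlc1* encodes a membrane protein best known from astrocytes. *Ager* and *Aqp5* mark AT1 cells.

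Promoter windows of AT2 genes are shown to place these genes in the genome and to show which letters known from lung promoters lie next to their starts. RefSeq's table (GRCm38.p6) held windows for 4 of the 4 marker genes and for 3 of the 4 surfactant-related genes used below (*Sftpb*, *Slc34a2* and *Sfta2*). The 250 bases before the start are printed for *Lamp3* and for those 3 genes. The searched letters were CTCAAG (a core bound by NKX2-1-type factors), TTGCNNAA (C/EBP-type) and TGTTTAC (forkhead-type), on both strands, and matches are in capitals. The first lies upstream of *Lamp3* (chr16:19706366-19706615, minus strand), the second upstream of *Sftpb* (chr6:72304360-72304609, plus strand), the third upstream of *Slc34a2* (chr5:53049103-53049352, plus strand) and the fourth upstream of *Sfta2* (chr17:35649458-35649707, plus strand).
Lamp3: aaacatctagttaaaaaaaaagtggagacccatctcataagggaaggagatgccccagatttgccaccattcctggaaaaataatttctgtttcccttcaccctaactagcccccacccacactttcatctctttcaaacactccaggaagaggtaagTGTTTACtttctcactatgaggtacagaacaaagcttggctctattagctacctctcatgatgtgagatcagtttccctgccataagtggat
Sftpb: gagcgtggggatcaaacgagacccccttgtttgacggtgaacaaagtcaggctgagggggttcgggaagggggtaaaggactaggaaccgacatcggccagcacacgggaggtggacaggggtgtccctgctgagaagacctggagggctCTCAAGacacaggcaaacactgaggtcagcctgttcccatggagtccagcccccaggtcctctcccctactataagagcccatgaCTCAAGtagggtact
Slc34a2: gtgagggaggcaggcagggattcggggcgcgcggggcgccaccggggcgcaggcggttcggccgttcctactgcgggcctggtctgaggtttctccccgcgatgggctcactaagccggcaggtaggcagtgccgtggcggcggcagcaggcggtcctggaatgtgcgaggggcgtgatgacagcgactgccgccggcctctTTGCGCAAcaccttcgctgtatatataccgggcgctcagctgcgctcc
Sfta2: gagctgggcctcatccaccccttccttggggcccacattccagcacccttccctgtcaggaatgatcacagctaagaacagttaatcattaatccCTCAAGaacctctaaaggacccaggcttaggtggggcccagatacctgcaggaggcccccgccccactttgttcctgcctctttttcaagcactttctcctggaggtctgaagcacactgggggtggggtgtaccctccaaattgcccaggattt
The *Lamp3* window held 1 TGTTTAC, the *Sftpb* window 2 CTCAAG, the *Slc34a2* window 1 TTGCNNAA and the *Sfta2* window 1 CTCAAG. The *Mlc1* window held 1 TTGCNNAA, and the windows of *Hc* and *Lrp2* held none of these letters. Among all 32851 windows of the table, CTCAAG occurred in 13.3%, TTGCNNAA in 9.56% and TGTTTAC in 3.17%. A match is a description of the sequence and says nothing about binding in these sections.

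The transcripts that placed cells in the class came mainly from *Lamp3* and *Hc*. These values chose the members and are given as a description. The marker sum had a median of 9 in RPR2 and 8 in CRPR2, with a highest value of 56 and 86. *Lamp3*, the marker most often present, was detected in 98.1% and 98.1% of AT2 cells, *Hc* in 95% and 86.0%, *Lrp2* in 54.0% and 61.9%, and *Mlc1* in 42.2% and 34.4%. All 4 markers were present in 24.5% of RPR2 AT2 cells and 23.5% of CRPR2 AT2 cells, and a single marker in 2.29% and 5.97%. At the threshold, 1502 RPR2 cells and 2496 CRPR2 cells had a sum of 4, and 2147 and 3536 cells that met the rest of the rule had a sum of 3. Cells at a sum of 4 had 31294 and 27178 counts per 1000000 gene transcripts (CPM) of *Slc34a2*, against 22409 and 21826 CPM at a sum of 3. Cells just inside and just outside the threshold thus had *Slc34a2* levels of the same order.

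Genes that the rule did not use were high in the class. Of the AT2 markers on a list of 24 genes, 6 were on the panel and outside the rule. *Sftpc*, the most widely used AT2 gene, was not analysed here. AT1 cells, chosen by the mirrored rule (at least 4 transcripts of *Ager* and *Aqp5* and more of these than of the AT2 markers), numbered 15262 and 10319, and NE cells, with at least 2 transcripts of the 5 NE genes, 16405 and 203040. *Sftpb*, which encodes surfactant protein B, stood at 77374 and 70787 CPM in AT2 cells and at 11899 and 18502 CPM in AT1 cells. *Sftpd*, which encodes surfactant protein D, stood at 49663 and 54275 CPM in AT2 cells and at 6954 and 18043 CPM in AT1 cells. *Slc34a2*, the sodium and phosphate cotransporter of the alveolar surface, stood at 59223 and 58704 CPM in AT2 cells and at 5580 and 10141 CPM in AT1 cells. All 3 were several-fold higher in AT2 cells of both sections, and their levels in AT1 cells were higher in CRPR2 than in RPR2. *Sfta2*, which encodes a surfactant-associated protein, was at 9143 and 8319 CPM, the membrane mucin gene *Muc1* at 19576 and 25520 CPM and *Wfdc2*, which encodes a secreted WAP-domain protein, at 1535 and 1813 CPM in AT2 cells. *Wfdc2* separated the classes least, with 663 and 1128 CPM in AT1 cells. Counted per cell, the transcripts of *Sftpb*, *Sftpd*, *Slc34a2* and *Sfta2* summed to a median of 24 in RPR2 AT2 cells and 25 in CRPR2 AT2 cells, against 1 and 4 in AT1 cells. At least 10 of them were present in 89.7% (89.2 to 90.3%) and 88.4% (87.9 to 88.9%) of AT2 cells. All 6 listed markers outside the rule were thus higher in AT2 cells than in AT1 cells of both sections.

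**Figure D1:**
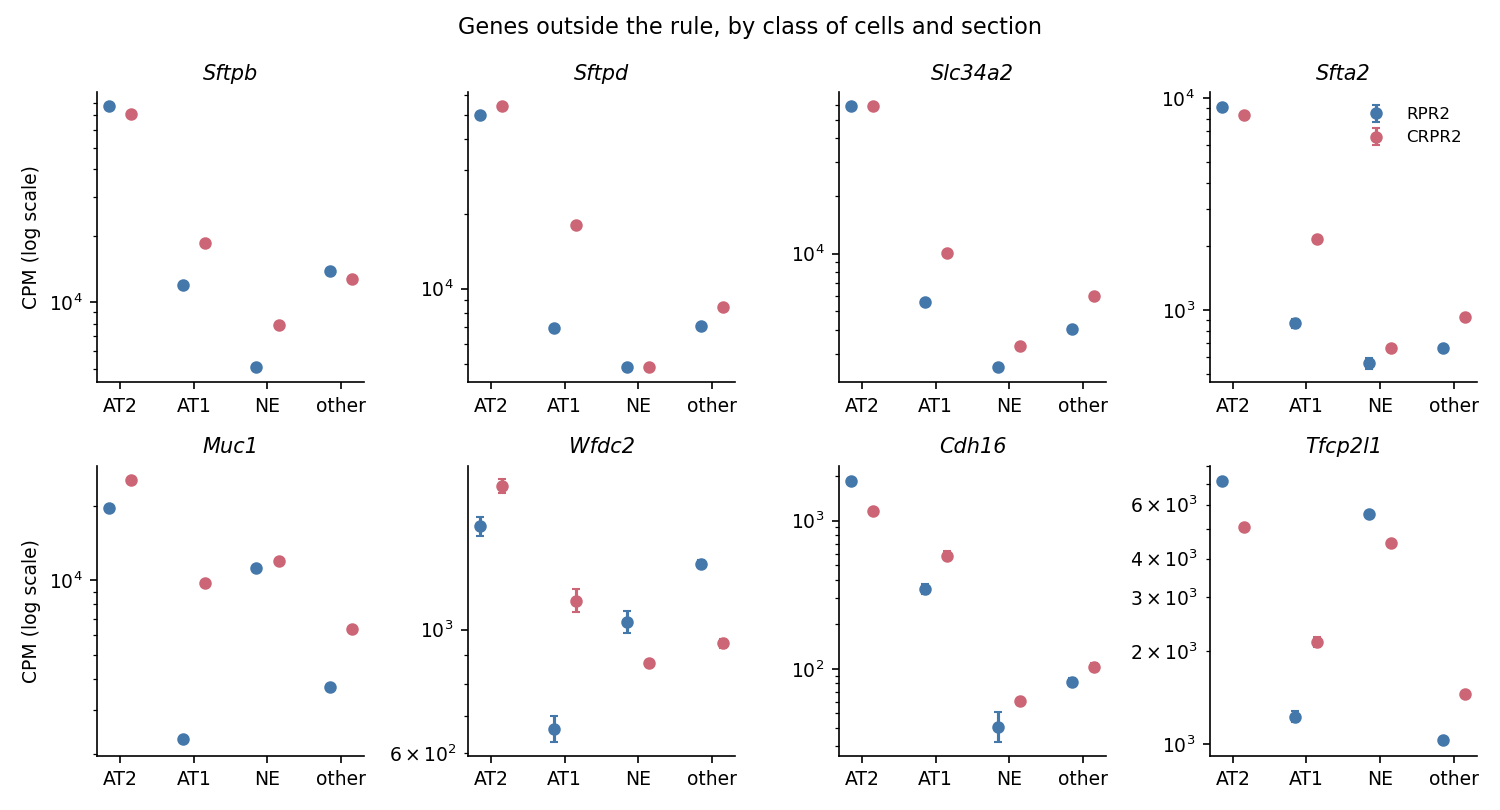
Levels of 8 genes outside the rule (CPM, log scale) in AT2, AT1, NE and other cells of the RPR2 and CRPR2 sections; bars are 95% counting intervals and there is 1 section per genotype. AT2 cells are the highest class of their section in every panel, for *Slc34a2* at 59223 and 58704 CPM, and AT1 cells of CRPR2 lie above those of RPR2.

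Each marker of the rule was also measured in cells chosen without it. When cells were chosen by the other markers with a sum of at least 3, *Lamp3* was 16.1-fold higher in AT2 cells than in other cells in RPR2 and 9.80-fold higher in CRPR2. The ratio was 16.0 and 12 for *Hc*, 22.3 and 12.3 for *Lrp2*, and 25.4 and 23.8 for *Mlc1*. Against AT1 cells the ratios were lower, between 6.27 (*Lamp3*) and 13.1 (*Lrp2*) in RPR2 and between 3.58 (*Lamp3*) and 5.36 (*Mlc1*) in CRPR2. Each marker was thus high in cells that the others chose, in both sections.

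Beyond the listed markers, AT2 cells shared further genes. They were compared here with other cells, which are the cells with at least 20 transcripts that were neither AT2, AT1 nor NE cells. The rule's 11 genes were left out of this and all further counts of genes, and a gene entered a comparison at 100 CPM or more in either group. Of 334 genes compared in RPR2, 25 (7.49%) were at least 2-fold higher in AT2 cells than in other cells and 147 (44%) at least 2-fold lower. In CRPR2 these were 19 (5.41%) and 164 (46.7%) of 351. The highest ratio in both sections was that of *Cdh16*, which encodes a cadherin best known from the kidney. *Cdh16* was at 1852 and 1160 CPM in AT2 cells and at 81.7 and 103 CPM in other cells. *Tfcp2l1*, which encodes a transcription factor of the Grainyhead family, was at 7153 and 5067 CPM in AT2 cells and at 1029 and 1453 CPM in other cells, and NE cells held 5611 and 4494 CPM. *Muc20*, a membrane mucin gene, was at 1352 and 1400 CPM in AT2 cells and at 369.7 and 588 CPM in other cells. *Tmem59l*, *Tmem213*, *Serpina10* and *Kng2* were among the 12 genes with the highest ratios too, at low levels. The protease inhibitor gene *Serpina10* was at 107 and 283 CPM, the kininogen gene *Kng2* at 174 and 595 CPM, *Tmem213* at 135 and 246 CPM and *Tmem59l* at 253 and 423 CPM. *Tmem59l* was higher still in AT1 cells, at 410.2 and 667 CPM.

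Cells segmented as AT2 cells also held transcripts of the endothelial, stromal and immune lists, as did the other classes. At least 2 transcripts of the endothelial list were present in 77.3% of AT2 cells in RPR2 and 67.5% in CRPR2, and of the stromal list in 60.4% and 58.8%. The endothelial shares were 81.5% and 71.9% in AT1 cells, 64.4% and 53.6% in other cells and 53.2% and 66.0% in NE cells. The stromal shares were 65.7% and 67.4%, 60.6% and 56.8%, and 18.2% and 17.7%. Only 2.18% and 3.61% of NE cells held the endothelial gene *Pecam1*. The 11 endothelial genes on the panel summed to 47464 CPM in RPR2 and 37257 CPM in CRPR2 AT2 cells, with the largest contribution from *Eng*, the endoglin gene, at 8517 and 6120 CPM. The 13 stromal genes summed to 24166 and 21807 CPM, with *Acta2*, which encodes smooth muscle actin, at 6448 and 7202 CPM. The 24 immune genes summed to 4784 and 6921 CPM, with the pan-leukocyte gene *Ptprc* at 1031 and 1419 CPM and the macrophage gene *Cd68* at 527 and 1734 CPM. Of the lists of alveolar macrophage and dendritic cell genes, 5 and 3 were on the panel, and they summed to 2094 and 4099 CPM and to 365 and 479.7 CPM in RPR2 and CRPR2. The dendritic cell genes *Cd209a* and *Cd86* were at 198 and 116 CPM and at 103 and 233 CPM. No gene of these lists was at 0 in AT2 cells of either section. The AT1 genes of the rule were present too, and 87.4% and 85.6% of AT2 cells held a transcript of *Ager* or *Aqp5*. Cells were outlined by expanding nuclei, so a transcript of a touching cell and one of the cell itself cannot be told apart, and the part of such transcripts in the results below was not tested beyond the alternatives given.

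AT2 cells made up a smaller share of the CRPR2 section than of the RPR2 section, but a larger share of its cells with at most 1 NE transcript. They were 8.07% (7.93 to 8.20%) of cells in RPR2 and 4.68% (4.61 to 4.75%) in CRPR2. NE cells made up 10.7% and 59.6% of the sections. Among cells with at most 1 NE transcript, AT2 cells were 9.04% (8.88 to 9.19%) in RPR2 and 11.6% (11.4 to 11.8%) in CRPR2, an order opposite to that over all cells. AT2 cells were 44.7% (44.1 to 45.3%) of AT2 and AT1 cells together in RPR2 and 60.7% (60.1 to 61.3%) in CRPR2. AT1 cells were 11.2% and 7.50% of cells with at most 1 NE transcript. The NE limit left out 312 cells that otherwise met the AT2 rule in RPR2 (2.47% of those that met it) and 3566 in CRPR2 (18.3%). Of the cells kept, 2.93% and 13% held 1 NE transcript. The log2 ratio of CRPR2 over RPR2 was -0.78 for the share of all cells, and -0.03 (-0.15 to 0.10) when AT2 cells with at least 2 endothelial, stromal or immune transcripts were left out, which kept 744 and 1628 AT2 cells. The last interval includes 0. Below, this alternative is named as leaving out cells that held transcripts of other cell types. It counted only the endothelial, stromal and immune lists. It set no limit on NE, airway, *Ager* or *Aqp5* transcripts beyond the rule. For the share of cells with at most 1 NE transcript, the same alternative gave 1.12 (0.99 to 1.25) in place of 0.36.

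AT2 cells were next set against AT1 cells, the other epithelial cells of the alveolus, within each section. Of 276 genes compared in RPR2, 46 (16.7%) were at least 2-fold higher in AT2 cells and 31 (11.2%) at least 2-fold lower. Of 304 genes in CRPR2, 18 (5.92%) were at least 2-fold higher and 25 (8.22%) at least 2-fold lower. Of the 264 genes compared in both sections, 17 were at least 2-fold higher in AT2 cells and 18 at least 2-fold lower in each. All 6 listed AT2 genes were at least 2-fold higher in RPR2 and 5 of 6 in CRPR2, with a median log2 ratio of 2.97 and 1.76, against -0.15 and -0.25 over all genes compared. The exception was *Wfdc2*, with a log2 ratio of 1.21 (1.11 to 1.31) in RPR2 and 0.68 (0.60 to 0.77) in CRPR2.

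On the higher side, *Slc34a2* had a log2 ratio of AT2 over AT1 cells of 3.41 (3.38 to 3.44) in RPR2 and 2.53 (2.51 to 2.56) in CRPR2. *Muc4*, a membrane mucin gene, was at 2357 and 7774 CPM in AT2 cells and at 205 and 2602 CPM in AT1 cells. *Slc5a1*, which encodes the sodium and glucose cotransporter SGLT1, was at 249 and 958 CPM in AT2 cells and at 49.2 and 368 CPM in AT1 cells. *Aif1l*, which encodes an actin-binding protein, was at 228 and 264 CPM in AT2 cells and at 62.6 and 109 CPM in AT1 cells. For *Muc4* and *Slc5a1* the AT2 level was higher in CRPR2 as well, whereas that of *Aif1l* was close in both sections.

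The 10 genes lowest in AT2 cells against AT1 cells held none of the AT1 list, of which *Ager* and *Aqp5* were used by the rule. *Ccn1*, which encodes a matricellular protein and is a YAP target, was at 1011 and 1343 CPM in AT2 cells and at 10884 and 9161 CPM in AT1 cells. Its relative *Ccn2* was at 1607 and 1456 CPM and at 4956 and 6043 CPM. *Pmp22*, a membrane protein gene, was at 4103 and 2775 CPM in AT2 cells and at 20766 and 13682 CPM in AT1 cells. *Fbln5*, which encodes an elastic fiber protein, had a log2 ratio of -2.37 (-2.43 to -2.31) in RPR2 and -2.06 (-2.11 to -2.01) in CRPR2. Also on this side were the tetraspanin gene *Tspan8* (-2.0 and -1.73), the keratin gene *Krt19* (-2.41 and -1.69), the growth factor receptor gene *Egfr* (-2.19 and -1.56), the transcription factor gene *Runx2* (-1.52 and -1.49), the tissue factor gene *F3* (-1.88 and -1.47) and *Mylk3* (-1.85 and -2.30, at 66.7 and 37.0 CPM in AT2 cells), which complete the 10 genes lowest in both sections. The AT1 list outside the rule, *Cav1* (caveolin 1) and *Vegfa* (the endothelial growth factor), had log2 ratios of -1.41 and -1.47 in RPR2 and -1.37 and -0.91 in CRPR2. For the listed AT2 genes the ratios were smaller in CRPR2, where AT1 cells held more of their transcripts. At least 10 transcripts of the 4 surfactant-related genes were present in 8.74% of AT1 cells in RPR2 and 26.4% in CRPR2.

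**Figure D2:**
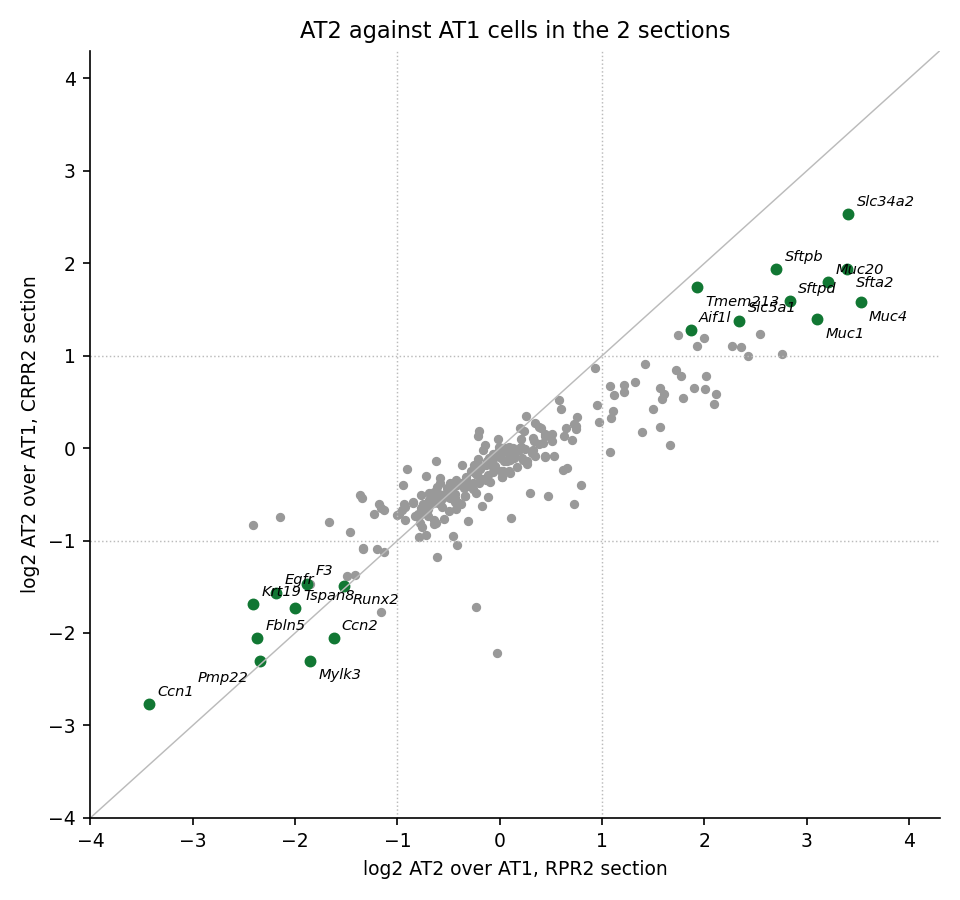
Each point is a gene compared in both sections, with the log2 ratio of AT2 over AT1 cells in RPR2 (x axis) and CRPR2 (y axis); green points are the 10 most extreme genes on each side, dotted lines mark 2-fold and the diagonal marks equal ratios. *Slc34a2* lies below the diagonal at 3.41 and 2.53, whereas *Pmp22* lies near it at -2.34 and -2.30.

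The AT2 identity genes were compared between the AT2 cells of the sections. The log2 ratio of CRPR2 over RPR2 was -0.13 (-0.14 to -0.12) for *Sftpb*, 0.13 (0.12 to 0.14) for *Sftpd*, -0.01 (-0.02 to 0.00) for *Slc34a2* and -0.14 (-0.17 to -0.11) for *Sfta2*. It was 0.38 (0.36 to 0.40) for *Muc1*, 0.24 (0.17 to 0.31) for *Wfdc2*, -0.67 (-0.75 to -0.60) for *Cdh16* and -0.50 (-0.53 to -0.46) for *Tfcp2l1*. None of the 6 listed AT2 genes reached 2-fold, where 28% of all genes compared were at least 2-fold higher and 6.67% at least 2-fold lower, and their median was 0.06, against 0.20 over all genes. As an alternative, AT2 cells that held at least 2 endothelial, stromal or immune transcripts were left out. The log2 ratio was then -0.54 for *Sftpb*, -0.38 for *Sftpd*, -0.49 for *Slc34a2* and -0.52 for *Sfta2*, so that *Sftpd* changed sign. With a marker sum of at least 15, an alternative chosen after seeing the data, it was 0.09 for *Sftpb*, 0.25 for *Sftpd*, 0.21 for *Slc34a2* and 0.00107 (-0.05 to 0.05) for *Sfta2*, so that the signs of these 4 genes depended on which AT2 cells were taken, whereas *Muc1* and *Wfdc2* were above 0 under each alternative run. The markers of the rule were at 36548 and 34850 CPM (*Lamp3*), 31077 and 25080 CPM (*Hc*), 6779 and 8039 CPM (*Lrp2*) and 4421 and 3233 CPM (*Mlc1*).

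Many other genes were higher in the CRPR2 AT2 cells. Of 300 genes compared, 84 (28%) were at least 2-fold higher in CRPR2 AT2 cells and 20 (6.67%) at least 2-fold lower. AT1 cells, which come from the same 2 sections, had 107 (34.5%) and 14 (4.52%) of 310, other cells 85 (24.3%) and 26 (7.43%) of 350, and NE cells 17 (5.92%) and 25 (8.71%) of 287. The 84 genes higher in AT2 cells had a median log2 ratio of 1.97 there, 2.34 in AT1 cells and 1.46 in other cells, and the 20 lower genes -1.33, -1.08 and -0.82. AT1 and other cells of these sections thus had differences of the same order as AT2 cells. When each class was scaled so that the median ratio of all genes was 1, which takes 0.20 from each log2 ratio in AT2 cells, 70 genes were at least 2-fold higher and 32 at least 2-fold lower in CRPR2 AT2 cells. Relative to that median, *Sftpd*, *Rb1*, *Cdkn1a* and the other genes named here with a log2 ratio between 0 and 0.20 turn from above 0 to below it.

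Among the genes with the highest ratios of CRPR2 over RPR2 AT2 cells were *Oit1*, *Muc5b*, *Scgb3a1*, *Gpa33* and *Upk3a*. *Muc5b*, which encodes a gel-forming airway mucin, was at 103 and 1672 CPM in AT2 cells, with a log2 ratio of 4.02 (3.80 to 4.25), and at 75.9 and 1507 CPM in AT1 cells. *Scgb3a1*, a secretoglobin gene of airway secretory cells, was at 219 and 3126 CPM in AT2 cells (log2 ratio 3.83, 3.68 to 3.99). *Upk3a*, which encodes a uroplakin of the urothelial surface, was at 190.1 and 2595 CPM in AT2 cells (log2 ratio 3.77, 3.61 to 3.94). NE cells held 1345 and 3632 CPM. *Cldn2*, which encodes a pore-forming claudin, was at 85.8 and 885 CPM (log2 ratio 3.37, 3.12 to 3.63), and *Atp6v1b1*, a proton pump subunit gene, at 63.0 and 594 CPM (log2 ratio 3.24, 2.95 to 3.54). *Prom2*, a prominin gene, was at 44.4 and 389 CPM in AT2 cells and at 5389 and 5565 CPM in NE cells. *Scg2*, a granin gene of NE cells that the rule did not use, was at 62.3 and 507 CPM in AT2 cells and at 15855 and 12477 CPM in NE cells. *Oit1* and *Gpa33*, the latter encoding an intestinal surface antigen, were low in RPR2, at 14.8 and 266 CPM and at 9.88 and 136 CPM. Their RPR2 levels were of the order of the highest control feature there (13.6 CPM), which matches no mouse gene. The size and rank of their ratios are thus not read. *Mki67*, the proliferation marker, is described with the cycling genes.

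Of the 17 airway genes on the panel, 7 of the 10 compared were at least 2-fold higher and none at least 2-fold lower, where 28% and 6.67% of all genes were, with a median of 2.14. *Scgb3a2*, the airway secretoglobin gene with the highest level among them, was at 2433 and 8519 CPM in AT2 cells and at 20413 and 17145 CPM in other cells. Its log2 ratio in AT2 cells was 1.81, and 0.32 with a marker sum of at least 15, an alternative chosen after seeing the data. Of the 8 NE genes outside the rule, 6 of 8 were at least 2-fold higher, against the same 28% over all genes, with a median of 2.36, and they summed to 6128 and 11609 CPM in AT2 cells, against 113262 and 110346 CPM in NE cells. *5330417C22Rik*, the gene of that list with the highest level in AT2 cells, was at 4770 and 6282 CPM. NE and airway transcripts were thus higher together in the AT2 and AT1 cells of CRPR2. Of the NE genes, 7 of 8 in AT1 cells and 6 of 8 in other cells were at least 2-fold higher (medians 3.11 and 3.17). Of the airway genes, 9 of 13 were in AT1 cells (median 2.01), 2 of 14 in other cells (-0.09) and 1 of 13 in NE cells (-0.41). All genes had 34.5%, 24.3% and 5.92% in AT1, other and NE cells. In other and NE cells, 4 and 6 airway genes were at least 2-fold lower, against 7.43% and 8.71% of all genes. NE cells were the larger share of the CRPR2 section. The part of NE and airway transcripts in the ratios was not tested.

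Fewer genes were at least 2-fold lower in CRPR2 AT2 cells (6.67%) than at least 2-fold higher (28%). Without AT2 cells that held transcripts of other cell types, 58 of 286 genes were at least 2-fold lower and 87 at least 2-fold higher. *Muc16* and *Upk3b*, both known from mesothelium, were at 109 and 24.5 CPM and at 444 and 116 CPM. *Prg2*, which encodes eosinophil major basic protein, was at 259 and 61.9 CPM, and *Igfbp6*, which encodes an insulin-like growth factor binding protein, at 3501 and 1030 CPM. *Ttn* (titin) was at 677 and 200.3 CPM and *Tnnc1* (troponin C) at 115 and 45.7 CPM. *Ppp1r1a*, which encodes a phosphatase inhibitor, was at 253 and 91.0 CPM in AT2 cells and at 28.2 and 19.4 CPM in AT1 cells, and was thus higher in AT2 than in AT1 cells of both sections. *9530003J23Rik* was at 166 and 63.2 CPM in AT2 cells and at 32.8 and 15.3 CPM in AT1 cells. *Fxyd1* (phospholemman) was at 1095 and 431 CPM.

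**Figure D3:**
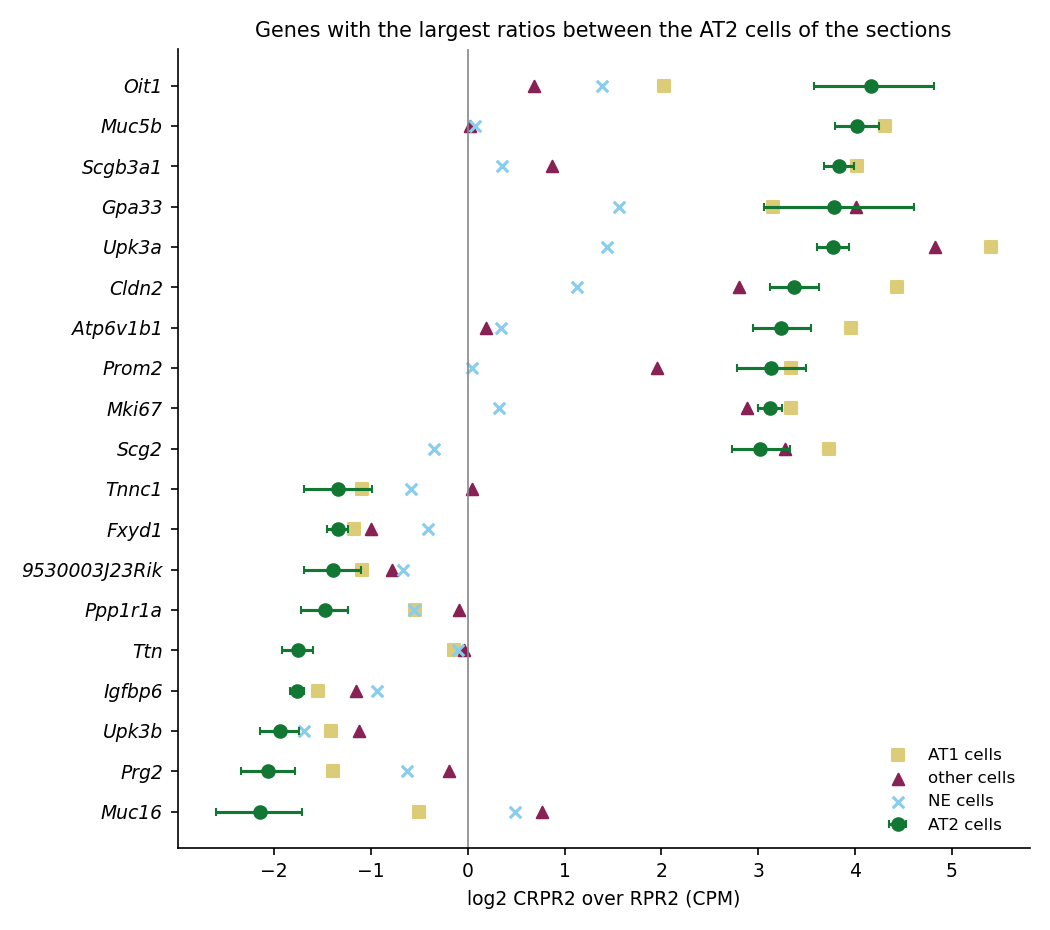
Log2 ratio of CRPR2 over RPR2 for the 10 genes highest and 9 of the genes lowest in CRPR2 AT2 cells (circles with 95% counting intervals), beside the ratios in AT1 (squares), other (triangles) and NE cells (crosses). *Upk3a* is at 3.77 in AT2 cells, 5.41 in AT1 cells and 1.43 in NE cells, whereas *Muc5b* is at 4.02 in AT2 cells and 0.02 in other cells.

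*Upk3a*, *Scgb3a1*, *Muc5b* and *Krt19* varied with the marker sum of the AT2 cell, which is the number of transcripts of the 4 markers that it held. AT2 cells were split into marker sums of 4 to 5, 6 to 9, 10 to 14 and 15 or more. In RPR2 these held 2700, 3976, 3127 and 2531 cells, and in CRPR2 4343, 4583, 3273 and 3749 cells. *Slc34a2* was higher at higher sums in both sections, from 35286 to 73413 CPM in RPR2 and from 29396 to 85157 CPM in CRPR2. *Cdh16* was lower in CRPR2 at each sum, from a log2 ratio of -0.89 at the lowest to -0.57 at the highest. *Upk3a* went the other way in both sections. In CRPR2 it went from 5434 CPM at 4 to 5 through 3953 and 1312 to 169 CPM at 15 or more. In RPR2 it went from 393 to 64.5 CPM. *Scgb3a1* in CRPR2 went from 6810 to 245 CPM and *Muc5b* from 2843 to 395 CPM. In RPR2 these 2 genes went from 547 to 89.9 CPM and from 158 to 59.9 CPM. *Krt19* was at 7303 CPM at the lowest sum and at 2572 CPM at the highest in CRPR2, where RPR2 had 2817 and 2376 CPM. Cells with the highest sums thus differed least between the sections in these genes, with a log2 ratio of 1.38 for *Upk3a*, 1.45 for *Scgb3a1*, 2.72 for *Muc5b* and 0.11 for *Krt19*, against 3.79, 3.64, 4.17 and 1.37 at 4 to 5. The endothelial gene *Pecam1* was lower at high sums in both sections, from 11462 to 4577 CPM in RPR2 and from 6794 to 3079 CPM in CRPR2. With a sum of at least 15 required, an alternative chosen after seeing the data, 50 genes were at least 2-fold higher in CRPR2 AT2 cells.

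**Figure D4:**
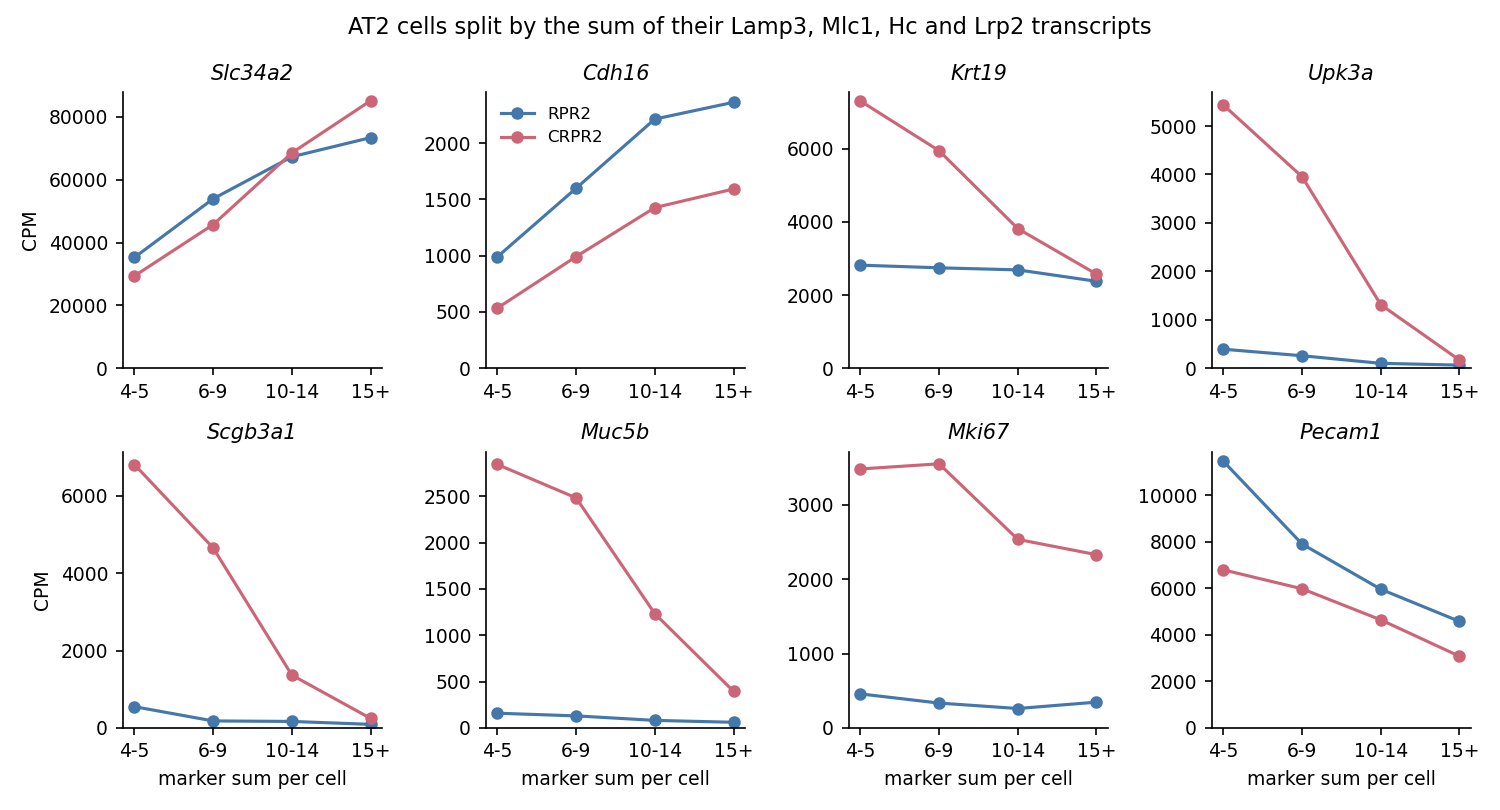
Level of 8 genes (CPM) in AT2 cells split by the sum of their *Lamp3*, *Mlc1*, *Hc* and *Lrp2* transcripts, for RPR2 and CRPR2. *Upk3a*, *Scgb3a1*, *Muc5b* and *Krt19* are higher at low than at high sums in both sections, and *Mki67* in CRPR2 is at 3484 CPM at 4 to 5 and 2331 CPM at 15 or more.

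A subset of CRPR2 AT2 cells held the uroplakin and secretory transcripts, as did a similar share of the other classes in CRPR2. At least 4 transcripts of *Upk3a*, *Gabrp* (a GABA receptor subunit gene), *Muc5b* and *Scgb3a1* were present in 1.07% (0.896 to 1.27%) of AT2 cells in RPR2 and 14.7% (14.1 to 15.3%) in CRPR2. The shares were 1.02% and 14.4% in AT1 cells, 7.61% and 13.6% in other cells and 7.90% and 12.4% in NE cells. The 2343 such AT2 cells of CRPR2 had 26705 CPM of *Lamp3* and 6187 CPM of *Lrp2*, but 6713 CPM of *Hc* and 381 CPM of *Mlc1*. AT2 cells of CRPR2 with no *Upk3a*, *Gabrp*, *Muc5b* or *Scgb3a1* transcript had 36764, 8522, 29872 and 4001 CPM. Their median marker sum was 10, against 6 in the subset. These 4 genes chose the members, so their levels are a description. The subset held 113433 CPM of the 4 surfactant-related genes against 212663 CPM, 16336 against 4988 CPM of the epithelial adhesion gene *Epcam*, 20210 against 7406 CPM of *Krt8*, and 589.7 against 6192 CPM of *Pecam1*. In RPR2 the 132 such cells had 7712 CPM of *Hc* and 15790 CPM of *Krt8*.

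More AT2 cells held transcripts of dividing cells in CRPR2. *Mki67* was at 340.1 CPM (95% interval, 312 to 369.8) in RPR2 and 2956 CPM (95% interval, 2888 to 3026) in CRPR2, and *Top2a*, the topoisomerase gene of dividing cells, at 273 and 1974 CPM. Cells were thinned to 50 transcripts to set depth aside, which left out 203 and 177 AT2 cells, and cells with a transcript of *Mki67* or *Top2a* were counted. Among AT2 cells these were 2.08% (1.83 to 2.35%) in RPR2 and 13.9% (13.3 to 14.4%) in CRPR2. Without thinning the shares were 3.86% (3.53 to 4.21%) and 25.1% (24.5 to 25.8%). The thinned shares were 1.27% (1.10 to 1.47%) and 12.8% (12.1 to 13.4%) in AT1 cells, 2.33% (2.24 to 2.43%) and 17.0% (16.8 to 17.2%) in other cells, and 41.6% (40.9 to 42.4%) and 50.1% (49.9 to 50.3%) in NE cells. With the cycling gene *Pclaf* counted as well, the thinned shares in AT2 cells were 5.46% and 18.9%. Their log2 ratio was then 1.79 in place of 2.74. AT1 cells, which rarely divide, had a median of 122 and 136 transcripts, close to that of AT2 cells, and shares of the same order, so the shares are not read as the share of dividing AT2 cells. All 6 genes of the cycling list were at least 2-fold higher in CRPR2 AT2 cells, against 28% of all genes, with a median log2 ratio of 2.84. *Ezh2*, which encodes the methyltransferase of the Polycomb complex, had the highest level among them, at 967 and 3085 CPM.

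**Figure D5:**
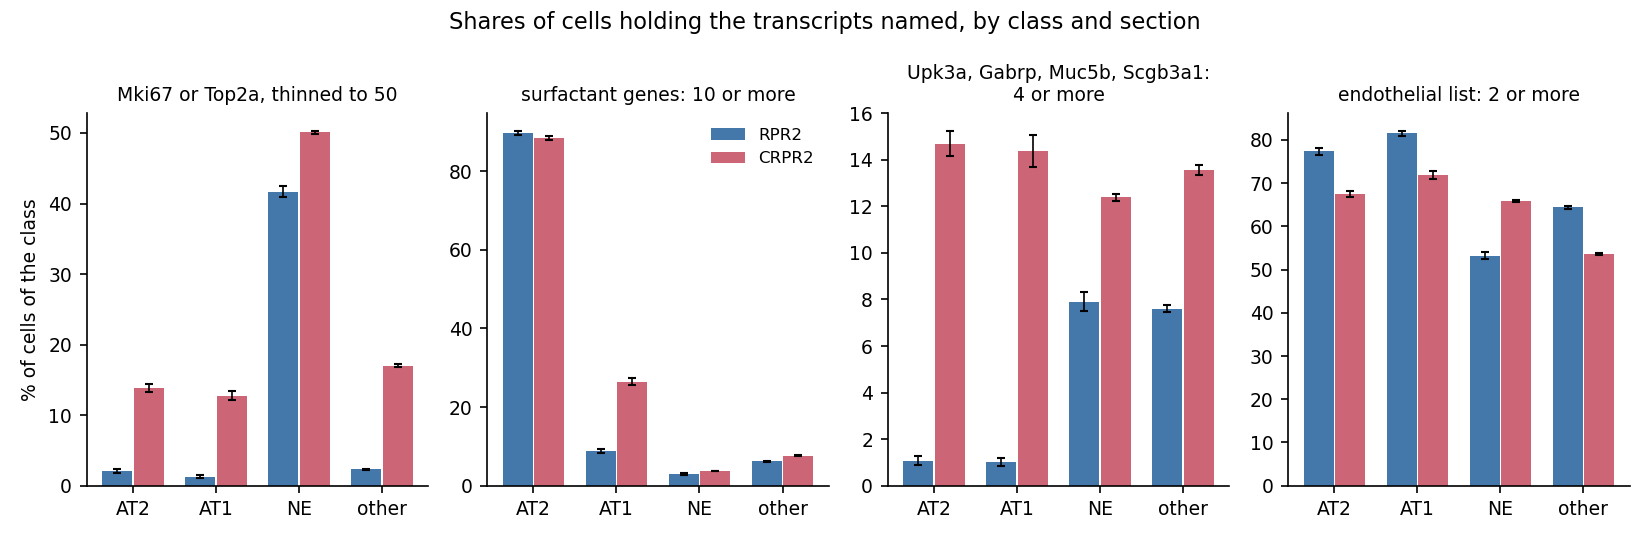
Percentage of AT2, AT1, NE and other cells of each section that held *Mki67* or *Top2a* after thinning to 50 transcripts, at least 10 transcripts of 4 surfactant-related genes, at least 4 transcripts of *Upk3a*, *Gabrp*, *Muc5b* and *Scgb3a1*, or at least 2 transcripts of the endothelial list; bars are 95% counting intervals. For the *Upk3a* set, AT2 cells are at 14.7% and AT1 cells at 14.4% in CRPR2, whereas for the surfactant set AT2 cells reach 89.7% in RPR2 and 88.4% in CRPR2, above all other classes.

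The cycling difference between sections was present at each marker sum. The thinned share in CRPR2 was 18.2% at sums of 4 to 5, 15.6% at 6 to 9, 11.2% at 10 to 14 and 9.10% at 15 or more. In RPR2 it was 2.38%, 1.97%, 1.79% and 1.58%. The log2 ratio of *Mki67* was 2.75 at 15 or more and 2.93 at 4 to 5, and thus varied less with the sum than that of *Upk3a*. AT2 cells with at least 3 transcripts of *Mki67* and *Top2a* numbered 87 in RPR2 and 1326 in CRPR2. They held 130014 and 141939 CPM of the surfactant-related genes, against 197240 and 206213 CPM in AT2 cells without such transcripts. They held more *Epcam* (14149 and 14524 CPM) than AT2 cells without (5601 and 5729 CPM). *Upk3a* was higher in them too, at 1735 and 6744 CPM against 112 and 1320 CPM. The same held for *Scgb3a1* in CRPR2, at 7445 against 1760 CPM. In RPR2 it was at 400 against 163 CPM, a difference that rests on 87 cells and is not read. The rule's marker *Hc* was lower in the AT2 cells with at least 3 such transcripts, at 15885 and 15473 CPM against 31456 and 28059 CPM. In RPR2 they also held more *Ptprc*, at 5006 against 937 CPM, whereas CRPR2 had 1455 against 1377 CPM.

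Of the 6 genes of the repair list, 3 (*Krt8*, *Cldn4* and *Areg*) were at least 2-fold higher in CRPR2 AT2 cells and 3 did not reach 2-fold, where 28% of all genes were at least 2-fold higher. *Krt8*, the keratin gene that marks AT2 cells on the way to AT1 cells after injury, was at 4910 and 10069 CPM in AT2 cells, with a log2 ratio of 1.04 (1.00 to 1.07). *Krt19* was at 2644 and 4789 CPM (log2 ratio 0.86, 0.81 to 0.91) and the claudin gene *Cldn4* at 293 and 701 CPM (log2 ratio 1.26, 1.11 to 1.41). *Areg*, which encodes the growth factor amphiregulin, was at 464 and 2279 CPM (log2 ratio 2.30, 2.19 to 2.41), the adhesion receptor gene *Cd44* at 3801 and 5716 CPM (log2 ratio 0.59, 0.54 to 0.63), and *Cdkn1a*, the p21 gene, at 2745 and 3079 CPM (log2 ratio 0.17, 0.11 to 0.22). The median over the list was 0.95. In AT1 cells, 3 of the 6 genes were also at least 2-fold higher, against 34.5% of all genes there, with a median of 1.06. A *Krt8* transcript was held by 39.2% and 61.8% of AT2 cells and by 58.2% and 77.4% of AT1 cells. NE cells held 23634 and 27880 CPM of *Krt8* and 6656 and 4215 CPM of *Cldn4*. At marker sums of 15 or more, the log2 ratio was 0.76 for *Krt8* and 0.11 for *Krt19*, against 1.52 and 1.37 at 4 to 5. Of the 8 shared epithelial genes, 3 were at least 2-fold higher, against 28% of all genes. These were *Krt8*, *Cldn4* and *Prom2*. *Epcam* was at 5803 and 7381 CPM, the E-cadherin gene *Cdh1* at 8527 and 8811 CPM, *Cldn7* at 685 and 814 CPM and *Prom1* at 285 and 451 CPM.

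Among the genes deleted by Cre, *Rb1* was at 2333 and 2543 CPM in AT2 cells (log2 ratio 0.12, 0.07 to 0.18) and *Trp53* at 1382 and 1387 CPM (log2 ratio 0.01, -0.07 to 0.08), and NE cells held 10079 and 11152 CPM of *Rb1* and 797 and 873 CPM of *Trp53*. The position of the probes relative to the deleted exons is not known here, so these levels check no deletion. Of the 6 genes of the p53 and RB list, only *E2f1*, the cell cycle transcription factor gene, was at least 2-fold higher and none at least 2-fold lower, against 28% and 6.67% of all genes. It was at 304 and 1129 CPM, with AT1 cells at 1622 and 2008 CPM. The p53 targets *Mdm2*, *Cdkn1a* and *Bax* had log2 ratios of -0.07, 0.17 and 0.35.

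Of 21 pathway genes, 20 were compared, 1 was at least 2-fold higher and none at least 2-fold lower, against 28% and 6.67% of all genes. Their median log2 ratio was 0.12, against 0.20 over all genes. *Hes1*, a Notch target, was at 1613 and 2798 CPM (log2 ratio 0.79, 0.73 to 0.86), and *Hey1* and *Hey2*, also Notch targets, had log2 ratios of -0.57 and -0.45. Without AT2 cells that held transcripts of other cell types, the ratio of *Hey1* was 0.06 (-0.45 to 0.60). The BMP targets *Id1* (0.45) and *Smad6* (-0.69), the Wnt targets *Axin2* (-0.18) and *Tbx3* (-0.52), and the Hedgehog targets *Gli1* (0.67) and *Ptch1* (-0.43) had ratios on both sides within each pair, except the Wnt pair. The YAP targets *Ccn1* and *Ccn2* stood at 0.41 and -0.14, and *Vegfa* at 0.28. *Lgr5*, a Wnt target and stem cell receptor gene, did not reach 100 CPM, at 21.0 and 21.2 CPM.

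Of the 3 genes of lipid handling and endocytosis outside the rule, 2 were compared and none reached 2-fold, where 28% of all genes were at least 2-fold higher and 6.67% at least 2-fold lower. Their median log2 ratio was -0.58, against 0.20 over all genes. *Cd36*, which encodes a fatty acid transporter, was at 34640 and 20442 CPM in AT2 cells (log2 ratio -0.76, -0.78 to -0.74) and at 25921 and 15347 CPM in other cells. *Mgll* (monoglyceride lipase) was at 3432 and 2601 CPM, and *Cubn*, the partner of megalin, at 17.3 and 12.9 CPM. AT1 cells held 22848 and 15249 CPM of *Cd36*. At marker sums of 4 to 5, AT2 cells held 31949 and 17463 CPM. At 15 or more they held 37391 and 22812 CPM, with a log2 ratio of -0.71. *Cd36* is also an endothelial gene, and the endothelial list had a median log2 ratio of -0.41 in AT2 cells, with *Eng* at -0.48. The part of endothelial transcripts in the *Cd36* ratio was not tested. The 4 ribosomal protein genes had a median of -0.19, and *Rps18* was at 10937 and 9492 CPM.

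The lists of other cell types and of mucins are given against all genes compared, of which 28% were at least 2-fold higher and 6.67% at least 2-fold lower in CRPR2 AT2 cells, with a median of 0.20. None of the 11 endothelial genes reached 2-fold in AT2 cells. Of 11 stromal genes compared, 2 were at least 2-fold higher in CRPR2 and 2 at least 2-fold lower, with a median of 0.16. The higher were *Upk1b*, a uroplakin gene, at 84.0 and 641 CPM and the pericyte gene *Rgs5* at 190.1 and 411 CPM. The lower were *Upk3b* and *Itga8*, an integrin gene of fibroblasts, the latter at 5948 and 2679 CPM. Of 15 immune genes compared, 4 were at least 2-fold higher and 1 at least 2-fold lower, shares near those over all genes (28% and 6.67%), with a median of 0.14. *Cd68*, *Cd86*, *Cd80* and the integrin gene *Itgam* were the higher genes, *Itgam* at 143 and 295 CPM and *Cd80* at 64.2 and 131 CPM. The log2 ratio of *Cd86* was 1.18, and -1.48 without AT2 cells that held transcripts of other cell types. That filter counts immune transcripts, those of *Cd86* among them. Of the alveolar macrophage list, 1 of 4 was at least 2-fold higher, also near the 28% over all genes, with a median of 0.96, and of the dendritic cell list 2 of 3, with a median of 1.03. The mucin list, of which 7 of 14 were compared, had 4 genes at least 2-fold higher and 1 at least 2-fold lower, with a median of 1.72. *Muc5ac*, the other gel-forming airway mucin gene, was at 40.1 and 325 CPM and the intestinal mucin gene *Muc2* at 36.4 and 175 CPM, whereas *Muc20* stood at 0.05. At least 2 alveolar macrophage transcripts were held by 10.6% of AT2 cells in CRPR2 and 4.62% in RPR2, where the list's most abundant gene in CRPR2 was *Cd68*. The part of such transcripts in the other ratios was not tested.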

How the data were processed

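Per the labels and the study's methods, sections were run on Xenium In Situ with a mouse panel of 379 genes and 100 custom genes, and cells were outlined by nuclear expansion. For each section, the authors deposited the counts of transcripts as a sparse matrix of genes by cells, with no normalization. The submitters' processing notes name Seurat 4.4.0. No column belonged to samples outside the series, and no doublet caller was run.

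Counts were summed over the cells of a class and divided by their gene transcripts, giving CPM. Genes at 100 CPM or more in either group were compared, and 2-fold set the genes counted. Intervals are exact 95% intervals (Clopper-Pearson for shares, Poisson for levels, conditional for ratios). Python 3.11.15, numpy 2.4.6, scipy 1.17.1 and pandas 2.3.3 were used, and the ratio step was tested on simulated data. The members and lists were chosen with earlier results of these data known. Genes were named if they were in the rule or in the lists of AT2, AT1, shared epithelial, lipid and endocytosis, p53 and RB, pathway target and repair genes, if they were the most abundant gene of another list, or if they were among the 12 highest over other cells or the 10 largest each way against AT1 cells or between sections. *Gabrp*, *Top2a*, *Pecam1*, *Itgam*, *Cd80*, *Rgs5*, *Upk1b*, *Itga8*, *Muc2* and *Muc5ac* were named after their values were seen, and a few genes that the rules for naming would include are not reported here. Alternatives changed the thresholds of the rule, its markers, the scaling, the CPM minimum and the thinning.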

Additional observations from a re-analysis of the deposited data

Results flagged for a closer look

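For 2 named genes the ratio of AT2 over AT1 cells lay on opposite sides of 0 in the sections, with intervals that did not include 0. The log2 ratio of *Epcam*, the epithelial adhesion gene, was 0.0713 in RPR2 and -0.13 in CRPR2. That of the claudin gene *Cldn4* was 0.73 in RPR2 and -0.61 in CRPR2, where AT2 cells held 293 and 701 CPM and AT1 cells 176 and 1067 CPM. With 1 section per genotype, these differences were not tested.

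The control features, which match no mouse gene and enter no comparison, gave counts above 0 in AT2 cells. In RPR2, the 41 negative control codewords gave 147 counts and the 20 negative control probes 93 counts. In CRPR2 they gave 225 and 104 counts. A control probe thus averaged 2.87 and 2.16 CPM, and the highest control feature stood at 14.5 CPM in CRPR2. *Oit1* and *Gpa33* in RPR2 AT2 cells, at 14.8 and 9.88 CPM, were of that order.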

How the results depend on the processing

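No paired analysis was possible because each genotype has 1 section. The values that follow compare CRPR2 with RPR2 as a log2 ratio, or count genes. Where a marker was left out of the rule, the minimum sum over the other markers was also lowered, from 4 to 3, so these values change both at once. Cells holding transcripts of other cell types are those with at least 2 transcripts of the endothelial, stromal and immune lists. NE, airway, *Ager* and *Aqp5* transcripts do not count there.

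The AT2 share of all cells (-0.78) was -0.73 with a marker sum of at least 3, -0.89 with at least 6, -0.94 with 0 NE transcripts, -0.53 with no NE limit, -0.59 with no *Ager* or *Aqp5* transcript, -0.84 with at least 2 of the 4 markers, -0.0257 without cells holding transcripts of other cell types, -0.91, -0.71 and -0.62 without *Lamp3*, *Mlc1* or *Hc* in the rule, and -0.59 with a sum of at least 15. In the same order, the share of cells with at most 1 NE transcript (0.36) was 0.42, 0.26, 0.45 (0 NE transcripts), 0.55, 0.30, 1.12, 0.24, 0.43, 0.53 and 0.56, and 0.43 with at least 50 transcripts per cell. With no NE limit that share was not run. The share of AT2 and AT1 cells together (0.44) was 0.98 with no *Ager* or *Aqp5* transcript, 0.34 without cells holding transcripts of other cell types, 0.57 and 0.41 without *Hc* or *Lrp2*, and 0.91 with a sum of at least 15. The cycling share (2.74) was 1.79 with *Pclaf* added, 2.31 with no *Ager* or *Aqp5* transcript, 2.42 without cells holding transcripts of other cell types and 2.96 without *Mlc1*. All of these kept their sign, but without cells holding transcripts of other cell types the interval of the share of all cells (-0.15 to 0.10) included 0, so that its direction was lost.

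Of the genes at least 2-fold different between sections in AT2 cells, 50 in place of 84 were higher with a sum of at least 15. Those lower (20) numbered 32 with the median ratio set to 1, 31 with no NE limit, 33 with no *Ager* or *Aqp5* transcript and 58 without cells holding transcripts of other cell types, which left 744 and 1628 AT2 cells. Of genes against AT1 cells, 78 in place of 46 were higher in RPR2 with no *Ager* or *Aqp5* transcript. In RPR2, 49, 56 and 95 in place of 31 were lower with a sum of at least 6, without cells holding transcripts of other cell types and with a sum of at least 15. In CRPR2, 55, 40 and 152 in place of 25 were lower with a sum of at least 6, without *Lamp3* and with a sum of at least 15. The median of the 92 named genes (0.18) was -0.0198 with the median ratio set to 1, 0.0619 without cells holding transcripts of other cell types (87 genes) and 0.0890 with a sum of at least 15. Stricter rules left fewer cells, and the cause of these shifts was not tested.

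Of 33 named genes at least 2-fold different between sections, 32 kept their direction under each of the 16 or 17 alternatives that gave a value and 25 stayed at least 2-fold. Of 59 named genes under 2-fold, 28 had the other sign under at least 1 alternative. Among them, *Sftpd* (0.13) was -0.377 and *Hey1* (-0.57) 0.0619 without cells holding transcripts of other cell types, and *Sftpb* (-0.13) was 0.0901 and *Slc34a2* (-0.01) 0.214 with a sum of at least 15. *Cd86* (1.18) was -1.48 without cells holding transcripts of other cell types, and *Scgb3a2* (1.81) was 0.32 with a sum of at least 15. The filter behind the *Cd86* value counts immune transcripts, those of *Cd86* among them, so that value is no independent check. *Krt8*, *Cldn4*, *Serpina10*, *9530003J23Rik* and *Tnnc1* were under 2-fold in some alternatives. The alternatives with a sum of at least 15 and with at least 10 surfactant-related transcripts were chosen after seeing the data.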

Other observations

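Cells rich in surfactant-related transcripts were not all cells of the AT2 rule. Of cells with at least 10 transcripts of *Sftpb*, *Sftpd*, *Slc34a2* and *Sfta2*, 56.2% (55.6 to 56.9%) in RPR2 and 43.0% (42.5 to 43.5%) in CRPR2 met the rule. Among those with at most 1 NE transcript, the shares were 57.6% (56.9 to 58.3%) and 55.8% (55.2 to 56.4%). Airway transcripts were present in both alveolar classes. At least 2 airway transcripts were found in 8.63% and 27.4% of AT2 cells and in 6.30% and 23.2% of AT1 cells, in RPR2 and CRPR2.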
